A study of Mus musculus with 8 samples.

Results

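Nodal, Tdgf1, Lefty1, Lefty2, Smad7, Acvr2b, Foxh1 and Inhbb, 8 of the 39009 gene entries in the expression files, belong to the Nodal and activin branch of TGF-beta signalling. They were picked because Lefty1 and Lefty2 had been seen at a higher level in chemically induced pluripotent stem cells than in embryonic stem cells in these same libraries, and the question put to the other 6 genes was whether ligand, co-receptor, receptor and other targets stood the same way. Levels of Lefty1 and Lefty2 against embryonic stem cells are therefore what the choice was made on, and every value of the 8 genes against ESC below is a description with no test.

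Nodal is a secreted ligand of the TGF-beta family that binds activin receptors together with the membrane-anchored co-receptor Cripto, the product of Tdgf1. The receptors phosphorylate Smad2 and Smad3, which enter the nucleus and act with DNA-binding partners such as Foxh1. Lefty1 and Lefty2 are targets of this pathway and secreted inhibitors of it, and Smad7 is an intracellular inhibitor that the pathway also induces. In mouse embryonic stem cells the pathway is active in culture, and in the embryo it patterns the epiblast and the left-right axis.

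The study measured RNA in mouse pluripotent cells (CiPSC) made from somatic cells with small-molecule compounds, in the somatic cells they came from and in an embryonic stem cell line, 8 libraries in 5 groups. NSC-CiPSC are lines 1, 2 and 3 from neural stem cells, and IEC-CiPSC are lines 10 and 13 from small intestinal epithelial cells. The source cells were 1 library of cultured neural stem cells at passage 2 (NSC) and 1 of primary small intestinal epithelial cells (IEC), both from E13.5 embryos. The embryonic stem cells (ESC) were 1 library of the R1 line. The strain label of NSC reads C57BL/6J-Tg(GOFGFP)11Imeg/RbrcxICR, a cross whose GOFGFP transgene is a green fluorescent reporter of Pou5f1. The labels of IEC and of the 5 CiPSC lines carry the same name with another number before Imeg in each, and all 7 of these libraries share the transgene. ESC are 129X1 x 129S1, so strain, cell line and way of derivation cannot be told apart in any comparison with ESC. Each line is 1 library, and whether the lines trace to separate animals is not stated in the labels.

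Levels are FPKM, fragment counts divided by transcript length and library depth, as the authors deposited them, with the bounds of a 95% interval that covers counting and assignment error within a library only. Depth, estimated from those intervals, was 8816000 to 10121000 fragments per library. All 6 pluripotency markers were at FPKM 1 or more in every CiPSC line and in ESC. All 6 neural stem cell markers were so in NSC. In IEC, 3 of 6 intestinal epithelial markers were below 1 (Cdx1, Cdx2 and Cdh17), while all 6 mesenchymal, all 6 leukocyte and all 6 hepatic markers were at 1 or more, with summed levels of 6731, 3641 and 5893 FPKM. In these bulk libraries fewer cells of a type and less RNA per cell cannot be told apart.

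All 8 genes were present in the files with a usable estimate in each library, and all 8 reached FPKM 1 in at least 1 library, the filter for testing. Nodal, Tdgf1, Lefty1, Lefty2 and Foxh1 passed it only through the pluripotent libraries. Differences below are on the log2(FPKM + 1) scale from a limma fit to all 8 libraries, with Benjamini-Hochberg adjustment across 17011 tested genes. A call required an adjusted p under 0.05 together with a change of at least 2-fold.

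Against their source cells, 7 of the 8 genes were higher in NSC-CiPSC than in NSC, where 18.3% of all tested genes were called higher and 39.0% were called either way. In IEC-CiPSC 6 of the 8 were higher than in IEC, where 19.1% of all tested genes were called higher and 45.3% either way. All 8 differences were upward in both comparisons. Inhbb passed in neither, and Smad7 did not pass against IEC. A group of 1 library is assumed to vary like the CiPSC lines, and 5 of the 8 genes could be tested only because the pluripotent cells express them. These counts, and the p-values of those 5 genes against source cells below, are therefore read as a description of the lines.

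**Figure D1:**
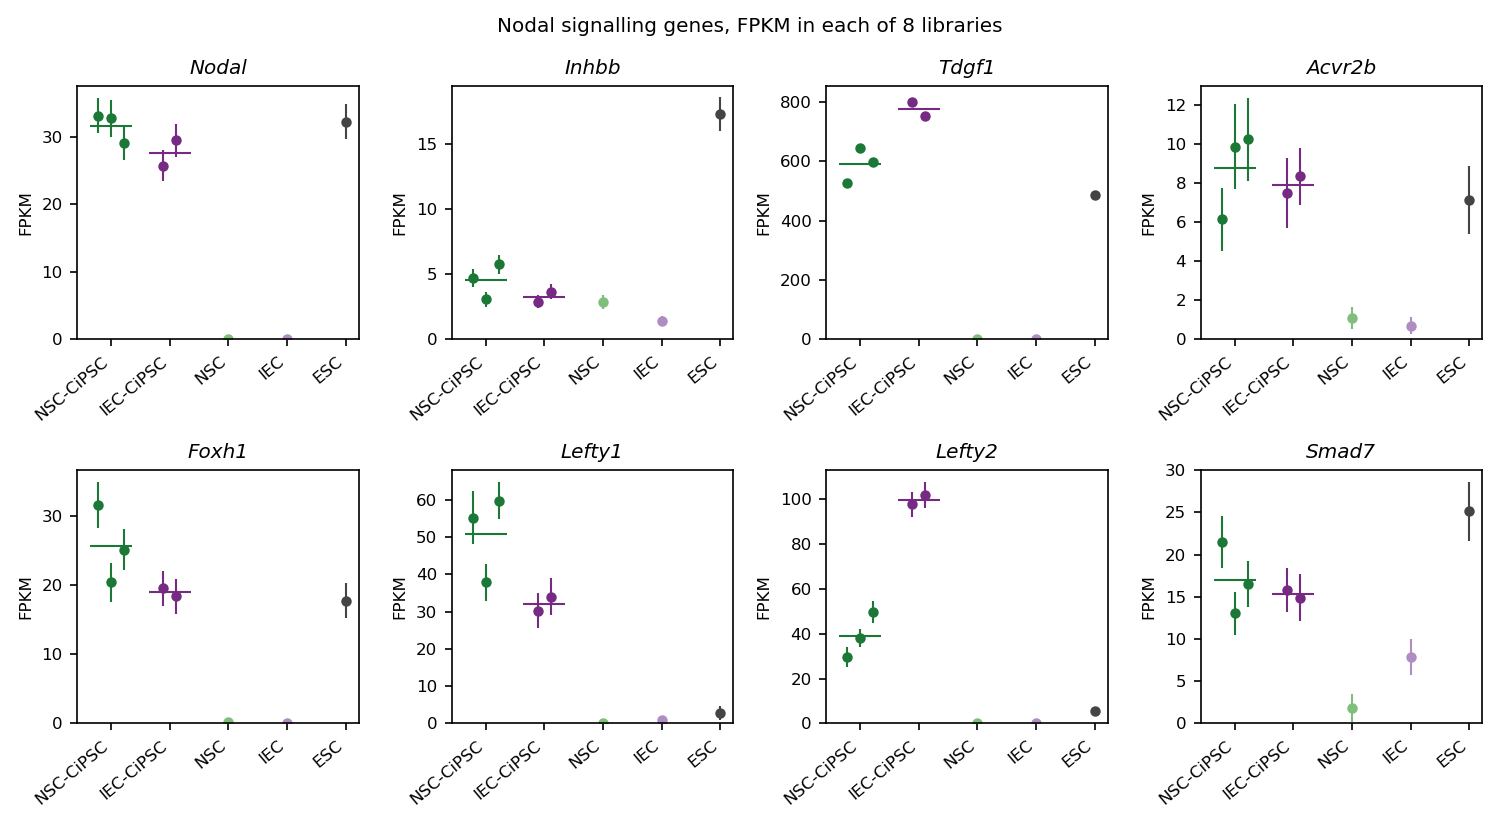
FPKM (vertical axis, linear from 0, its own scale in each panel) of the 8 genes in each of 8 libraries, grouped by cell type. Points are libraries, vertical bars the within-library 95% interval, and horizontal bars the means of NSC-CiPSC (n = 3) and IEC-CiPSC (n = 2). Nodal stands at 25.7 to 33.1 in the 5 CiPSC lines and at 32.2 in ESC, Lefty1 and Lefty2 stand far above ESC in all 5 lines, and Inhbb stands at 2.89 to 5.76 in the lines and at 17.3 in ESC.

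The ligand Nodal (ENSMUSG00000037171, chr10:61417972-61425338, mm10) had 33.1, 32.7 and 29.0 FPKM in NSC-CiPSC lines 1, 2 and 3 and 25.7 and 29.5 FPKM in IEC-CiPSC lines 10 and 13, against 0.107 FPKM in NSC, 0 in IEC and 32.2 FPKM in ESC. The 5 lines lay on both sides of ESC, 2 above and 3 below. For this gene the interval of each library corresponds to a whole number of fragments within 0.05, which gives 646, 577 and 577 fragments in NSC-CiPSC and 518 and 596 in IEC-CiPSC, against 2 fragments in NSC, 0 in IEC and 625 in ESC. Nodal rose by 4.88 ± 0.14 (SE) on the log2 scale in NSC-CiPSC against NSC (limma, adjusted p = 0.000112). It rose in IEC-CiPSC against IEC, where it is listed at 0 (limma, adjusted p = 6.31e-05), so no fold is given. Between the origins the difference was 0.19 ± 0.11 and did not pass (limma, adjusted p = 0.333). The 5 lines averaged 30.0 ± 3.03 FPKM (SD, n = 5), which is 0.931 times the ESC level.

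Inhbb (ENSMUSG00000037035, chr1:119415465-119422248), which encodes the beta B subunit of activins and inhibins, had 4.72, 3.06 and 5.76 FPKM in NSC-CiPSC and 2.89 and 3.66 FPKM in IEC-CiPSC, against 2.87 FPKM in NSC, 1.43 in IEC and 17.3 in ESC. All 5 lines were below ESC by more than 2-fold, and all were above both source libraries, line 10 only just above NSC. Its whole-fragment counts were 198, 116 and 246 in NSC-CiPSC and 125 and 159 in IEC-CiPSC, against 115 in NSC, 62 in IEC and 721 in ESC. The difference was 0.48 ± 0.34 in NSC-CiPSC against NSC (limma, adjusted p = 0.296) and 0.81 ± 0.36 in IEC-CiPSC against IEC (limma, adjusted p = 0.123), and neither passed. Under quantile normalization the IEC value was 1.37 and did pass (limma, adjusted p = 0.0347). The 5 lines averaged 4.02 ± 1.21 FPKM (SD, n = 5), 0.233 times ESC. Of the 2 ligands among the 8 genes, Nodal was thus within 2-fold of ESC in every line and Inhbb more than 2-fold below it in every line.

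Tdgf1 (ENSMUSG00000032494, chr9:110939610-110946158), the co-receptor, was the most abundant of the 8 genes per length. It had 528, 646 and 596 FPKM in NSC-CiPSC and 799 and 753 FPKM in IEC-CiPSC, against 0.708 FPKM in NSC, 0.0546 FPKM in IEC and 487 FPKM in ESC. All 5 lines were above ESC, and both IEC-CiPSC lines were above all 3 NSC-CiPSC lines. In the source cells its level rested on about 12 fragments in NSC and 1 in IEC. Tdgf1 rose by 8.43 ± 0.13 in NSC-CiPSC against NSC (limma, adjusted p = 2.26e-05) and by 9.52 ± 0.14 in IEC-CiPSC against IEC (limma, adjusted p = 6.01e-06). With 0.1 in place of 1 added to the FPKM these were 9.51 and 12.29, so the size of the rise depends on the added value. The same change put the rises against NSC at 7.25 for Nodal, 7.68 for Lefty1 and 6.48 for Foxh1. The difference between the origins, -0.40 ± 0.10 for NSC-CiPSC against IEC-CiPSC, did not pass (limma, adjusted p = 0.0966). The 5 lines averaged 664 ± 112 FPKM (SD, n = 5), 1.36 times ESC.

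Acvr2b (ENSMUSG00000061393, chr9:119402444-119433501), a type II activin receptor used by Nodal, had 6.14, 9.87 and 10.3 FPKM in NSC-CiPSC and 7.50 and 8.36 FPKM in IEC-CiPSC, against 1.09 FPKM in NSC, 0.693 FPKM in IEC and 7.15 FPKM in ESC. The lines were above both source libraries, and 4 of 5 were above ESC, with NSC-CiPSC line 1 below it. It rose by 2.19 ± 0.32 in NSC-CiPSC against NSC (limma, adjusted p = 0.00673) and by 2.40 ± 0.34 in IEC-CiPSC against IEC (limma, adjusted p = 0.00547). Between the origins the difference was 0.10 ± 0.25 (limma, adjusted p = 0.844).

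Foxh1 (ENSMUSG00000033837, chr15:76668284-76669948), the forkhead partner of Smad2 and Smad3, had 31.6, 20.4 and 25.2 FPKM in NSC-CiPSC and 19.6 and 18.4 FPKM in IEC-CiPSC, against 0.185 FPKM in NSC, 0 in IEC and 17.8 FPKM in ESC. Every NSC-CiPSC line was above both IEC-CiPSC lines, and all 5 were above ESC, line 13 only just. The intervals correspond to 358, 209 and 291 fragments in NSC-CiPSC and 229 and 216 in IEC-CiPSC, against 2 in NSC, 0 in IEC and 200 in ESC. Foxh1 rose by 4.48 ± 0.26 in NSC-CiPSC against NSC (limma, adjusted p = 0.000653) and rose in IEC-CiPSC against IEC, where it is listed at 0 (limma, adjusted p = 0.00057). The difference between the origins, 0.40 ± 0.21, did not pass (limma, adjusted p = 0.298).

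Lefty1 (ENSMUSG00000038793, chr1:180935022-180938400) and Lefty2 (ENSMUSG00000066652, chr1:180893108-180899103) are neighbouring copies on the plus strand, 35918 bases apart. Their coding sequences are 1104 bases each without the stop codon and match at 1014 positions (91.8%), with a longest identical run of 140 bases. Of the words of 50 bases in the Lefty1 coding sequence, 26.6% also occur in Lefty2, and of those of 100 bases 7.3% do. Fragments from such stretches can be divided between the 2 genes in counting, so their separate levels are less certain than their sum. The pair of lines that follows shows coding bases 35 to 124, where the copies differ most, with the 27 differing bases in capitals (GRCm38, GENCODE M21, plus strand, chr1:180935144-180935233 for Lefty1 and chr1:180893218-180893307 for Lefty2).
Lefty1: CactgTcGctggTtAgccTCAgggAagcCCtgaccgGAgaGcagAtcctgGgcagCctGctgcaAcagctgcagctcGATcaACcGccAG
Lefty2: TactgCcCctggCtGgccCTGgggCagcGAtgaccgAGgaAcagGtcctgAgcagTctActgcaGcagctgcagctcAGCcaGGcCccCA

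Lefty1 had 55.3, 37.9 and 59.8 FPKM in NSC-CiPSC and 30.3 and 34.0 FPKM in IEC-CiPSC, against 0.144 FPKM in NSC, 0.998 in IEC and 2.70 in ESC. Lefty2 had 29.6, 38.2 and 49.7 FPKM in NSC-CiPSC and 97.8 and 102 FPKM in IEC-CiPSC, against 0 in NSC, 0 in IEC and 5.40 FPKM in ESC. The lowest CiPSC line was thus far above ESC for both genes, whose intervals in ESC were 0.881 to 4.52 FPKM for Lefty1 and 3.42 to 7.38 FPKM for Lefty2. The 5 lines averaged 43.4 ± 13.2 FPKM for Lefty1 and 63.5 ± 34.0 FPKM for Lefty2 (SD, n = 5), which is 16.1 and 11.7 times ESC. These means and SDs pool the 2 origins. In NSC-CiPSC (n = 3) the means were 51.0 ± 11.6 FPKM for Lefty1 and 39.2 ± 10.1 for Lefty2 (SD). In IEC-CiPSC (n = 2) they were 32.1 ± 2.65 and 99.9 ± 2.88 FPKM (SD). Lefty1 rose by 5.48 ± 0.30 in NSC-CiPSC against NSC (limma, adjusted p = 0.00054) and by 4.05 ± 0.31 in IEC-CiPSC against IEC (limma, adjusted p = 0.000958). Lefty2 rose in NSC-CiPSC against NSC (limma, adjusted p = 0.000612) and in IEC-CiPSC against IEC (limma, adjusted p = 0.000255), and it is listed at 0 in both sources.

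The balance of the copies differed between the lines of the 2 origins, as the stacked bars show. Every NSC-CiPSC line had more Lefty1 and less Lefty2 than both IEC-CiPSC lines. Lefty1 made up 65.1%, 49.7% and 54.6% of the summed FPKM in NSC-CiPSC lines 1, 2 and 3 and 23.6% and 25.0% in IEC-CiPSC lines 10 and 13, against 33.3% in ESC. The mean shares were 56.5% ± 7.87 (SD, n = 3) in NSC-CiPSC and 24.3% ± 0.987 (SD, n = 2) in IEC-CiPSC. An exact two-sided permutation test of the absolute difference, 32.2 points, gave p = 0.1, the smallest that 3 lines against 2 can give, and doubling the one-sided p gives 0.2. With every NSC-CiPSC share above both IEC-CiPSC shares, the one-sided p could only be its lowest. Nothing beyond the order of the lines is read from the test.

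**Figure D2:**
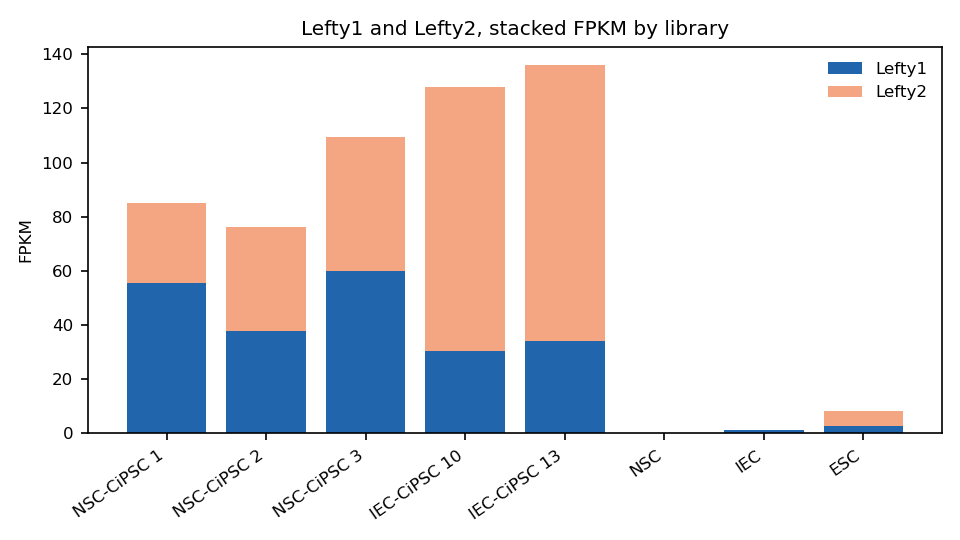
FPKM of Lefty1 and Lefty2 (vertical axis, linear, stacked bars) in each of the 8 libraries. The summed bars stand at 76.1 to 110 in NSC-CiPSC and 128 and 136 in IEC-CiPSC, against 0.144 in NSC, 0.998 in IEC and 8.10 in ESC, with most of the bar Lefty2 in IEC-CiPSC.

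Of the 8 genes, Lefty2 alone was called between NSC-CiPSC and IEC-CiPSC, where 4.32% of all tested genes were called and 2.76% were called lower. Its difference was -1.36 ± 0.24 (limma, adjusted p = 0.0482). That call lies at the threshold and was lost without NSC-CiPSC line 2 (adjusted p = 0.12), without line 3 (0.0832), without IEC-CiPSC line 10 (0.239) and without line 13 (0.246). For Lefty1 the difference was 0.63 ± 0.23 and did not pass (limma, adjusted p = 0.183). When the copies were summed, which was chosen after the data had been seen, the levels were 90.2 ± 17.3 FPKM in NSC-CiPSC (SD, n = 3) and 132 ± 5.53 FPKM in IEC-CiPSC (SD, n = 2). The summed difference was -0.56 ± 0.18 and did not pass (limma, adjusted p = 0.138). The sum rose by 6.30 ± 0.23 in NSC-CiPSC against NSC (limma, adjusted p = 0.000202) and by 6.06 ± 0.24 in IEC-CiPSC against IEC (limma, adjusted p = 0.000142). Like each copy, the sum reached FPKM 1 only in the pluripotent libraries, so these rises are a description.

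Every NSC-CiPSC line was above both IEC-CiPSC lines for 2 of the 8 genes, Lefty1 and Foxh1, where 26.8% of all tested genes had that order. Every NSC-CiPSC line was below both for Tdgf1 and Lefty2, where 21.0% of all tested genes did. With 4 of 8 genes separated in either direction, the share is near that of all genes.

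Smad7 (ENSMUSG00000025880, chr18:75367529-75395935), the intracellular inhibitor, had 21.5, 13.0 and 16.5 FPKM in NSC-CiPSC and 15.8 and 14.9 FPKM in IEC-CiPSC, against 1.83 FPKM in NSC, 7.83 in IEC and 25.1 in ESC. All 5 lines were above both source libraries and below ESC, whose interval was 21.6 to 28.6 FPKM and nearly reaches line 1. Smad7 rose by 2.64 ± 0.29 in NSC-CiPSC against NSC (limma, adjusted p = 0.00304). Its difference of 0.89 ± 0.31 in IEC-CiPSC against IEC did not pass (limma, adjusted p = 0.0669), while under quantile normalization it was 1.28 and passed (limma, adjusted p = 0.0263). The 5 lines averaged 16.3 ± 3.16 FPKM (SD, n = 5), 0.650 times ESC.

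A test of the difference between the routes, the change in NSC-CiPSC against NSC minus that in IEC-CiPSC against IEC, called 2 of the 8 genes, where 30.5% of all tested genes were called. It was -1.10 ± 0.19 for Tdgf1 (limma, adjusted p = 0.0161), or -2.79 with 0.1 added to the FPKM, and 1.76 ± 0.42 for Smad7 (limma, adjusted p = 0.0376). For Nodal it was 0.04 ± 0.20 (limma, adjusted p = 0.883). Tdgf1 and Nodal passed the filter on low values only through the pluripotent libraries, so their values here are a description.

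**Figure D3:**
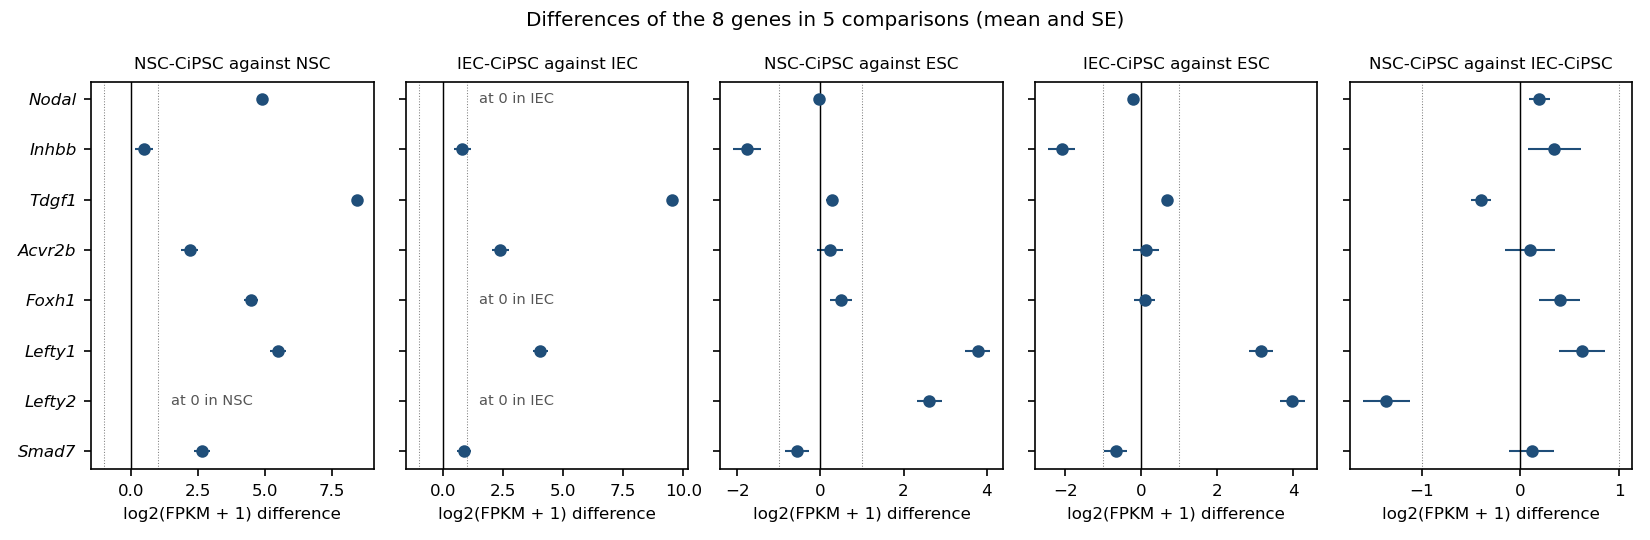
Differences in log2(FPKM + 1) (horizontal axis, a separate scale in each panel) of the 8 genes in 5 comparisons, points with SE bars, dotted lines at 2-fold. Genes listed at 0 in the source library are written so and have no point. Against ESC, Lefty1 (3.79 and 3.16) and Lefty2 (2.62 and 3.98) lie right of the 2-fold line, Inhbb (-1.76 and -2.10) lies left of it, and the other 5 genes lie between the lines.

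Set against ESC, the 8 genes did not move together. In NSC-CiPSC the differences were 3.79 ± 0.30 for Lefty1, 2.62 ± 0.30 for Lefty2, 0.49 ± 0.26 for Foxh1, 0.27 ± 0.13 for Tdgf1, 0.23 ± 0.32 for Acvr2b and -0.03 ± 0.14 for Nodal, with -0.56 ± 0.29 for Smad7 and -1.76 ± 0.34 for Inhbb. In IEC-CiPSC they were 3.98 ± 0.32 for Lefty2, 3.16 ± 0.31 for Lefty1, 0.67 ± 0.14 for Tdgf1, 0.13 ± 0.34 for Acvr2b, 0.09 ± 0.28 for Foxh1 and -0.22 ± 0.15 for Nodal, with -0.68 ± 0.31 for Smad7 and -2.10 ± 0.36 for Inhbb. These 2 sets share the ESC library. Both Lefty genes lay past the call thresholds in NSC-CiPSC against ESC, where 2.81% of all tested genes were (0.946% higher), and in IEC-CiPSC against ESC, where 3.36% were (1.63% higher). Nothing is read from that count, since the choice of genes used it.

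Among the 6 genes other than Lefty1 and Lefty2, all 5 lines were above ESC for Tdgf1 and Foxh1 and below it for Smad7 and Inhbb. Over all tested genes 20.5% were above in all 5 lines and 20.0% below. Lefty1 and Lefty2, chosen for standing above ESC, were at least 2-fold above it in all 5 lines, which 0.594% of all tested genes were, and nothing is read from that. Inhbb was at least 2-fold below in all 5, which 1.55% were. Markers of mesendoderm and endoderm, 8 genes of differentiating cells, summed to 4.95 to 9.53 FPKM in NSC-CiPSC and 7.27 to 7.57 in IEC-CiPSC, against 6.91 in ESC. Foxa2, Gata6, Mixl1 and Sox17 among them were below 1 in every CiPSC line and in ESC. Gata4 was above ESC in every line (0.363 to 2.41 FPKM, against 0.276), as was Gata6. Gsc was above it in 4 of 5 lines, T and Mixl1 in 3 and Foxa2 in 1. Sox17 lay on both sides of ESC, and Eomes was below it in all 5. The 5 primed epiblast markers summed to 64.7 to 119 FPKM in NSC-CiPSC and 40.3 to 43.9 in IEC-CiPSC, against 72.9 in ESC, with Fgf5 below 1 in all of them. Most of the sum was Dnmt3b, at 51.1 to 107 FPKM in NSC-CiPSC, 25.3 and 31.5 in IEC-CiPSC and 50.4 in ESC. Otx2 was below ESC in all 5 lines, at 0.533 to 0.580 FPKM in NSC-CiPSC, 5.55 and 3.89 in IEC-CiPSC and 10.7 in ESC. The part of these cell states in the Lefty levels was not tested.

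The pathway list held 42 other genes, of which 38 could be tested (Cfc1, Acvr1c, Cer1 and Mixl1 did not reach FPKM 1). In NSC-CiPSC against NSC 8 of the 38 were higher (21.1%) and 6 lower (15.8%), near the 18.3% and 20.7% of all tested genes. In IEC-CiPSC against IEC 7 were higher (18.4%) and 15 lower (39.5%), where 19.1% and 26.2% of all tested genes were. The median difference of the list was 0.19 in NSC-CiPSC against NSC (-0.02 without 5 genes listed at 0 in NSC), beside 0.03 over all tested genes. In IEC-CiPSC against IEC it was -0.86 (-0.91 without 3 genes listed at 0 in IEC), beside -0.03 over all tested genes.

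Among the other ligands, Gdf3, a Nodal-related ligand of pluripotent cells, had 50.1, 29.4 and 32.5 FPKM in NSC-CiPSC and 50.6 and 49.9 FPKM in IEC-CiPSC, against 0 in NSC, 0 in IEC and 37.5 FPKM in ESC. It differed from both sources (limma, adjusted p = 0.000776 against NSC and 0.000495 against IEC), and it passed the filter on low values only through the pluripotent libraries. Gdf11 fell by 3.49 ± 0.10 in NSC-CiPSC against NSC (limma, adjusted p = 0.000132), and Tgfb2 fell by 3.08 ± 0.17 (limma, adjusted p = 0.000591). Both also fell in IEC-CiPSC against IEC. There Gdf11 fell by 1.83 ± 0.11 (limma, adjusted p = 0.000485) and Tgfb2 by 2.70 ± 0.18 (limma, adjusted p = 0.000672). Tgfb1 rose by 1.40 ± 0.37 in NSC-CiPSC against NSC (limma, adjusted p = 0.0367), a call lost without NSC-CiPSC line 3, IEC-CiPSC line 10 or line 13 (adjusted p up to 0.0831), and it fell by 4.57 ± 0.40 in IEC-CiPSC against IEC (limma, adjusted p = 0.00132). In IEC-CiPSC against IEC, Tgfb3 fell by 4.17 ± 0.20 (limma, adjusted p = 0.000236). Its fall in NSC-CiPSC against NSC was 1.08 ± 0.19 (limma, adjusted p = 0.0106).

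Of the receptors and transducers, the type I receptor gene Acvr1b had 7.88, 12.1 and 12.7 FPKM in NSC-CiPSC and 12.2 and 12.0 in IEC-CiPSC, against 6.14 in NSC, 7.63 in IEC and 10.1 in ESC. It passed in no comparison. Smad2 stood at 20.1 to 26.1 FPKM in the 5 lines, against 24.1 in NSC, 26.6 in IEC and 25.4 in ESC. It passed in none either. Smad3 had 3.10, 5.53 and 4.82 FPKM in NSC-CiPSC and 6.60 and 4.40 in IEC-CiPSC, against 11.7 in NSC, 12.6 in IEC and 3.83 in ESC. It fell by 1.24 ± 0.36 in NSC-CiPSC against NSC at the edge of the threshold (limma, adjusted p = 0.0461), a call lost without any 1 of the 5 CiPSC lines (adjusted p up to 0.0986). The TGF-beta receptor gene Tgfbr2 fell by 1.30 ± 0.13 in NSC-CiPSC against NSC (limma, adjusted p = 0.00258) and fell by 5.71 ± 0.14 in IEC-CiPSC against IEC (limma, adjusted p = 3.45e-05), where it had 0.413 and 0.207 FPKM in the lines and 67.2 FPKM in IEC. Beside the falls against IEC stand the mesenchymal markers, which summed to 27.8 and 30.9 FPKM in IEC-CiPSC and 6731 FPKM in IEC, and the leukocyte markers, which summed to 10.0 and 13.1 FPKM in IEC-CiPSC and 3641 FPKM in IEC. Their part in these falls was not tested.

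Among inhibitors and nuclear regulators, Tgif1, a corepressor that binds Smad2 and Smad3, stood at 67.4 to 84.2 FPKM in the 5 lines, against 7.32 in NSC, 18.9 in IEC and 78.9 in ESC. It rose by 3.23 ± 0.11 in NSC-CiPSC against NSC (limma, adjusted p = 0.000194) and by 1.84 ± 0.12 in IEC-CiPSC against IEC (limma, adjusted p = 0.000594). Tmeff1, a membrane protein that inhibits Nodal signalling in frog embryos, rose by 2.43 ± 0.14 in IEC-CiPSC against IEC (limma, adjusted p = 0.000428). Its rise in NSC-CiPSC against NSC was 1.08 ± 0.13 (limma, adjusted p = 0.00426). Under alternatives the latter ran from 0.927 to 1.17, partly under 2-fold. Pmepa1, a target that dampens Smad signalling, rose by 2.51 ± 0.19 in NSC-CiPSC against NSC (limma, adjusted p = 0.00126) and fell by 1.11 ± 0.20 in IEC-CiPSC against IEC (limma, adjusted p = 0.0119), where without line 13 the value was -0.91, under 2-fold. Fst, which encodes the activin-binding protein follistatin, fell by 3.75 ± 0.58 in IEC-CiPSC against IEC (limma, adjusted p = 0.0072). Skil, a Smad corepressor and target, had 15.0, 18.6 and 18.5 FPKM in NSC-CiPSC and 13.2 and 11.3 in IEC-CiPSC, against 9.29 in NSC, 8.03 in IEC and 10.5 in ESC. In no comparison did it reach the 2-fold change a call requires. Cer1, a secreted Nodal antagonist, was listed at 0 in the 5 lines, IEC and ESC, and had 0.0662 FPKM in NSC.

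Of the targets, Eomes, a mesendoderm regulator, had 1.26, 1.71 and 2.20 FPKM in NSC-CiPSC and 3.57 and 3.05 in IEC-CiPSC, against 0.211 in NSC, 0 in IEC and 4.36 in ESC. It rose by 1.15 ± 0.23 in NSC-CiPSC against NSC (limma, adjusted p = 0.0155) and rose in IEC-CiPSC against IEC, where it is listed at 0 (limma, adjusted p = 0.00291). Like Gdf3, Eomes passed the filter on low values only through the pluripotent libraries, so these rises are a description.

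Between the origins 3 of the 38 genes were called, all lower in NSC-CiPSC (7.89%), where 4.32% of all tested genes were called and 2.76% were lower. Those described here are Inhba and Tgfbr3. Inhba, the activin beta A subunit, had 0.222, 0 and 0.0719 FPKM in NSC-CiPSC and 2.13 and 3.40 FPKM in IEC-CiPSC, a difference of -1.76 ± 0.19 (limma, adjusted p = 0.0202). Tgfbr3, the betaglycan co-receptor, had 0.427, 0.764 and 0.540 FPKM in NSC-CiPSC and 2.73 and 2.47 FPKM in IEC-CiPSC, a difference of -1.20 ± 0.12 (limma, adjusted p = 0.0178). Both calls were lost without NSC-CiPSC line 3, IEC-CiPSC line 10 or line 13, and that of Inhba also without NSC-CiPSC line 2 (adjusted p up to 0.0977 for Inhba and 0.137 for Tgfbr3). The mesenchymal markers summed to 3.08 to 6.27 FPKM in NSC-CiPSC and 27.8 and 30.9 FPKM in IEC-CiPSC, and their part in these differences was not tested.

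Against ESC 0 of the 38 genes were called in NSC-CiPSC by limma, where 2.81% of all tested genes were. At an unadjusted p under 0.05 were 7 of the 38, which 22.1% of all tested genes reached. In IEC-CiPSC Inhba was 1.79 ± 0.25 higher (limma, adjusted p = 0.0435) and Tgfbr3 was 1.06 ± 0.16 higher (limma, adjusted p = 0.049). These were 2 of the 38 genes (5.26%), where 3.36% of all tested genes were called and 1.63% were called higher. The call of Inhba was lost without each of the 5 lines in turn (adjusted p 0.0518 to 0.134), and that of Tgfbr3 without each line except NSC-CiPSC line 1 (adjusted p 0.0605 to 0.209).

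**Figure D4:**
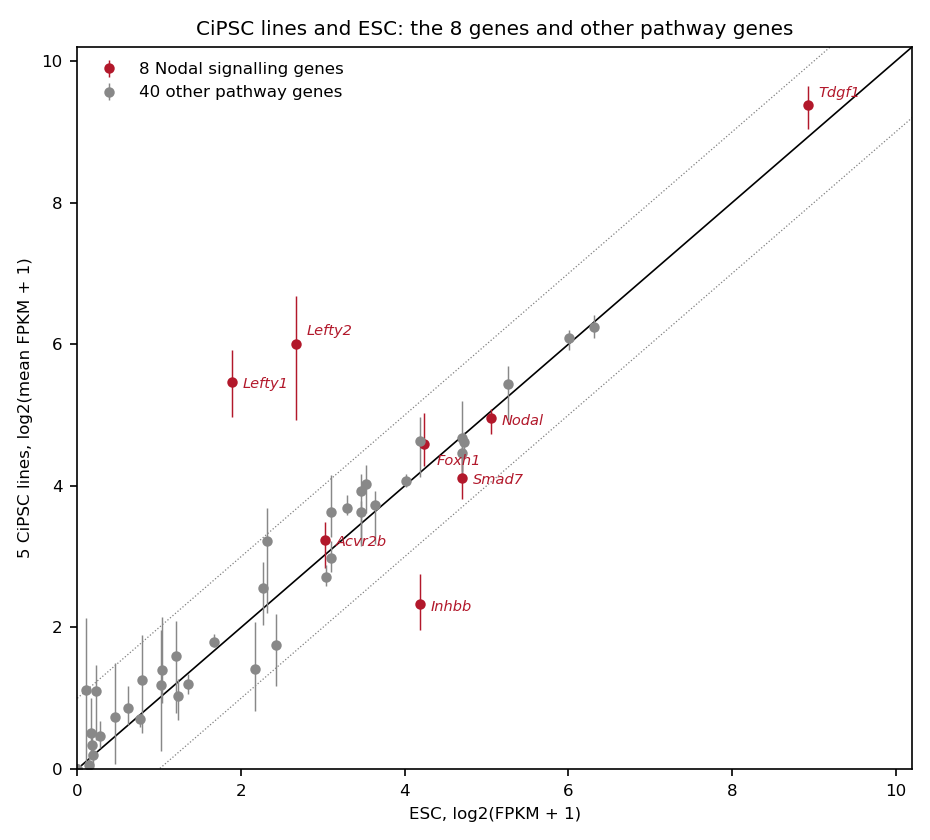
Mean of the 5 CiPSC lines, log2(mean FPKM + 1) (vertical axis), against ESC, log2(FPKM + 1) (horizontal axis), for the 8 genes (red) and 40 other pathway genes (grey). Bars run from the lowest to the highest line, the solid line marks equal levels and the dotted lines 2-fold. Lefty1 and Lefty2 lie above the upper dotted line with their whole bars, Inhbb lies below the lower one, and Nodal lies near the line of equal levels.

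Genes with the most similar pattern were found by the root mean square difference of centred log2(FPKM + 1) over the 8 libraries among 9737 candidates, as a description. Nearest to Nodal were Eras (0.19), Trim71 (0.20), Bcat1 (0.27), Foxh1 (0.32) and Palm3 (0.33). Nearest to Tdgf1 were Pou5f1 (0.30) and Nanog (0.38), then Mylpf (0.48), Dppa5a (0.82) and Trap1a (0.84). Lefty1 and Lefty2 had other neighbours. Nearest to Lefty1 were Fabp3 (0.47), Dppa3 (0.56), Fabp3-ps1 (0.74), Erdr1 (0.77) and Smtnl1 (0.78), where Fabp3-ps1 is a pseudogene of Fabp3 whose fragments may be shared with it. Fabp3 had 468, 824 and 689 FPKM in NSC-CiPSC and 344 and 289 FPKM in IEC-CiPSC, against 7.04 FPKM in NSC, 14.8 in IEC and 33.7 in ESC. Nearest to Lefty2 were Tdrd12 (0.61), Smtnl1 (0.77), Nup62cl (0.81), Mageb16 (0.88) and Nlrp4f (0.89). Tdrd12 had 18.4, 28.2 and 21.7 FPKM in NSC-CiPSC and 69.2 and 66.5 FPKM in IEC-CiPSC, against 0.362 in NSC, 0 in IEC and 10.4 in ESC.

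Promoter windows from 250 bases before to 50 after the start were given by RefSeq (GRCm38.p6) for 4 of the 8 genes, Nodal, Tdgf1, Acvr2b and Inhbb. None of these 4 windows held AATNCACA, a Foxh1-type site found in 3.6% of 32851 promoter windows on either strand. None held CAGACA (21.04% of windows) or GTCTAGAC (0.21%), which are Smad elements. No match says only that these letters are not in these windows.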

How the data were processed

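RNA was measured in 8 libraries in 5 groups. Per the labels' protocols, the RNeasy Plus Mini Kit served for extraction and NEBNext Ultra for library preparation. The authors deposited FPKM per gene with interval bounds. The submitters' processing notes name TopHat, Cufflinks and mm10, with versions and annotation release not given in the sources used here. Of 39009 entries, 447 without an OK status in every library were left out. Values were used as deposited. The 17011 genes that reached FPKM 1 in any library were fitted as log2(FPKM + 1) with 1 mean per group in limma 3.58.1 (R 4.3.3), with moderation and a variance trend and 3 residual degrees of freedom. A fold change on this scale understates that of low genes. The fit was tested on simulated data. No 2 libraries held identical values. Whether the lines trace to separate animals is not stated. The p-values therefore rest on the spread among lines, which may be technical. Sequences came from GENCODE M21 and RefSeq. The 8 genes, the pathway and marker lists, the motifs and the rule for named genes were chosen with earlier results of these data known. That rule named the 8 genes, up to 4 called pathway genes in each direction and comparison, largest first, whose higher group reached FPKM 2, and Gdf3, Acvr1b, Smad2, Smad3, Skil and Cer1. Some pathway genes that this rule picked are counted in the totals and are not reported here.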

Additional observations from a re-analysis of the deposited data

Results flagged for a closer look

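The change along the neural route (NSC-CiPSC against NSC) was set against that along the intestinal route (IEC-CiPSC against IEC) by an interaction contrast in limma, which called 2 of the 8 genes. For Tdgf1 the neural change minus the intestinal one was -1.10 ± 0.19 (adjusted p = 0.0161), with rises of 8.43 and 9.52 in the routes. With 0.1 in place of 1 added to the FPKM it was -2.79, and the source levels behind it were about 12 fragments in NSC and 1 in IEC. Tdgf1 passed the filter on low values only through the pluripotent libraries, so its route difference is a description. For Smad7 it was 1.76 ± 0.42 (adjusted p = 0.0376), with 2.64 and 0.89. Smad7 averaged 17.0 ± 4.26 FPKM in NSC-CiPSC (SD, n = 3) and 15.3 ± 0.670 FPKM in IEC-CiPSC (SD, n = 2), while the single source libraries held 1.83 FPKM in NSC and 7.83 FPKM in IEC. Both calls were lost without NSC-CiPSC line 3, IEC-CiPSC line 10 or IEC-CiPSC line 13, with adjusted p-values up to 0.0693 for Tdgf1 and 0.122 for Smad7.

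By the same contrast 14 of the 38 tested pathway genes were called (36.8%), where 30.5% of all tested genes were. Given here are 9 of them, named above by a rule that takes the largest called changes. The neural change minus the intestinal one was positive for Tgfb1 (5.97), Fst (4.56), Tgfbr2 (4.41), Pmepa1 (3.61), Tgfb3 (3.09), Tgfbr3 (2.28) and Tgif1 (1.39). It was negative for Gdf11 (-1.65) and Tmeff1 (-1.35). A positive value need not be a rise along the neural route. Tgfbr2 and Tgfb3 fell in both routes, by more in the intestinal one. Fst (0.81) and Tgfbr3 (0.27) were not called in NSC-CiPSC against NSC. Tmeff1 rose in both routes, by more in the intestinal one. The call of Fst was lost without IEC-CiPSC line 10 (adjusted p = 0.0703) or line 13 (0.0608), that of Tmeff1 without line 13 (0.0503), and that of Tgfb3 with 0.1 added (0.0543). The mesenchymal, leukocyte and hepatic markers summed to 6731, 3641 and 5893 FPKM in IEC and 2.48, 1.31 and 0.319 FPKM in NSC. Gdf11 and Tmeff1 were higher in NSC than in IEC. The part of these markers in the differences was not tested.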

How the results depend on the processing

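Over all alternatives no result changed direction after being called. Of 684 values of the 8 genes under alternatives, 645 stayed on their side of the threshold, 31 lost a call and 8 gained one. These values include the sum of Lefty1 and Lefty2, entered under each of the 2 genes, and the descriptive comparisons with ESC. The call count among the 8 genes between NSC-CiPSC and IEC-CiPSC, 1 in the report, was 0 with 0.1 added in place of 1 and 0 without a filter, and 0 to 1 without single lines. Against source cells the counts of 7 and 6 did not move without single lines. The count of differences between routes, 2, was 1 without a filter, 1 under quantile normalization and 0 to 3 without single lines. Against ESC the described count of 2 was 0 in NSC-CiPSC and 1 in IEC-CiPSC when only the libraries compared were fitted, and 0 to 2 in each without single lines. The 2 pathway genes called in IEC-CiPSC against ESC became 0 with 0.1 added, 1 with 0.5, 1 under TPM scaling, 0 with only the libraries compared and 0 to 4 without single lines. Pathway counts without single lines were 0 to 2 in NSC-CiPSC against ESC and 0 to 3 between the origins. Counts over all genes without single lines ran from 187 to 720 in NSC-CiPSC against ESC (478 in the report's fit), 153 to 890 in IEC-CiPSC against ESC (572) and 99 to 789 between the origins (735). With only the libraries compared they were 202 and 123 against ESC. Fits without a line, and those of only the libraries compared against ESC, hold fewer degrees of freedom. The highest counts against ESC came without NSC-CiPSC line 1. Leaving out an NSC-CiPSC line changes no difference in IEC-CiPSC against ESC (Inhba stays at 1.79). Only the shared estimate of the spread and its degrees of freedom change there. The cause of the other changes was not tested. TPM scaling moved the median of all genes in IEC-CiPSC against IEC to -0.17 and quantile normalization to 0.15. Leaving out an IEC-CiPSC line leaves 1 library in that group, assumed to vary like the others. No paired analysis was possible because NSC-CiPSC lines 1 to 3 and IEC-CiPSC lines 10 and 13 share no numbers and the other groups hold 1 library each.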
